A study of Mus musculus with 28 samples.

Results

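The genes described here encode the nuclear-made parts of the mitochondrial respiratory chain, of the machinery that imports proteins into mitochondria, and of the mitochondrial ribosome. They were taken from the array's gene annotation by symbol: every symbol that begins with Nduf, Cox4 to Cox8, Cox10 to Cox19, Atp5, Uqcr, Sdha to Sdhd, Timm, Tomm, Mrpl or Mrps with a number, or Cycs, Cyct and Cyc1. The rule found 35 of 4799 named genes, each measured by 2 spots. Of these, 23 belong to the respiratory chain, 7 to protein import and 5 to the mitochondrial ribosome. The genes of complexes II and III are not analysed here, since no named spot matched them. The symbol rule itself uses no measured value.

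Liver RNA of 15 C57BL/6 mice, 12 to 16 weeks old, was compared on 28 two-colour arrays. The 5 control mice ate chow for 2 weeks. The 5 high-fat mice received a diet high in fat for these 2 weeks. The 5 fasted mice ate chow for 2 weeks and then went without food for 16 h. Sex and diet composition are not given in these sources. Each array set 1 liver directly against another. The mice formed 4 pairs of a fasted and a control mouse, 5 pairs of a high-fat and a control mouse and 5 pairs of a fasted and a high-fat mouse, and each pair was run on 2 arrays, which the design text describes as a dye swap. The mean of both arrays of such a swap is the value of 1 pair, and a pair is written below by its mouse numbers.

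All values are log2 ratios, so 0 means equal signal in both livers. Their direction is not stated by the authors and was taken from the order in which a title names both livers, with the later name as the numerator, which is likely but not settled. Turning it would exchange higher and lower throughout. Intensities were not used here, so neither the level of a gene nor its signal over background is known, and the liver label could not be checked against marker levels. Array medians ran from -0.23 to 0.35, and standard deviations over spots from 0.29 to 1.26. The second array of fasted mouse 15 and control mouse 2 had both the lowest median and the highest standard deviation. The 2 arrays of a swap, turned the same way, correlated across all spots with r from -0.30 to 0.52, and r was below 0 in 9 of 14 swaps. The channel labels of the second arrays, read literally, leave the dyes unexchanged, which goes against the design text, and every pair value below rests on the design text. Of the named genes whose first arrays alone gave a log2 ratio over 1 in size, the second arrays alone, turned as for a swap, gave the same sign for 67 of 75 in fasted over control, 7 of 10 in high-fat over control and 49 of 50 in fasted over high-fat. The genes described here did not reach that size, the largest being 0.68 for Cox7a2 in fasted over control. Between first and second arrays alone, 24 of these genes had opposite signs and 11 the same in fasted over control. In high-fat over control 26 had opposite signs and 9 the same, and in fasted over high-fat 20 and 15. If the dyes were exchanged, the mean of a swap cancels a dye bias that is constant for a gene. Means of swaps are therefore reported, and single arrays only where stated. In such bulk RNA, fewer cells of a type and less RNA per cell cannot be told apart.

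The respiratory chain passes electrons from NADH through complex I, a quinone, complex III and cytochrome c to complex IV, which reduces oxygen, and complex V uses the resulting proton gradient to make ATP. Nearly all subunits are encoded in the nucleus, made in the cytosol and carried through the TOM pore of the outer membrane to TIM complexes of the inner membrane, while mitochondrial ribosomes make the few core subunits encoded in mitochondrial DNA. In liver, fasting shifts fuel use toward fatty acids, and the oxidation of fatty acids delivers electrons to this chain.

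Between fasted and control livers, most of the 35 genes lay close to 0 and 4 passed the test. Cycs, the electron carrier cytochrome c of somatic cells, was higher in fasted livers by 0.51 ± 0.10 (log2 ratio ± SE), or 1.43-fold. Timm8a1, a small chaperone of the space between the membranes, was higher by 0.38 ± 0.09, and Tomm40, the pore of the outer membrane, was 1.22-fold higher. Mrpl39, a protein of the large mitochondrial ribosomal subunit, was 1.27-fold lower. The test was a limma fit of all 14 pairs, in which pairs that share a mouse were allowed to correlate, with p-values adjusted by Benjamini-Hochberg over 11457 features and a threshold of 0.05. Thus 3 of 35 genes (8.57%) were higher, against 4.15% of all named genes, and 1 of 35 (2.86%) was lower, against 5.54%. The 31 genes not called in this comparison ran from -0.21 to 0.16. The median over the 35 genes was -0.06, and over all named genes 0.01. The 4 calls, and both calls of fasted over high-fat livers given further on, were lost when only the directly hybridised pairs were fitted (limma adjusted p from 0.0529 to 0.391) and when only the second array of each swap was used (0.0699 to 0.689). With the direct pairs the fasted over control values were 0.63 for Cycs, 0.45 for Timm8a1, 0.32 for Tomm40 and -0.34 for Mrpl39. With the second arrays Timm8a1 was 0.13 and Tomm40 was 0.12, while Cycs was 0.37 and Mrpl39 was -0.54. With only the first arrays Mrpl39 was -0.15 with an adjusted p of 0.159, and when mice were assumed to hold 0.5 of the variance Tomm40 had 0.0611.

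**Figure D1:**
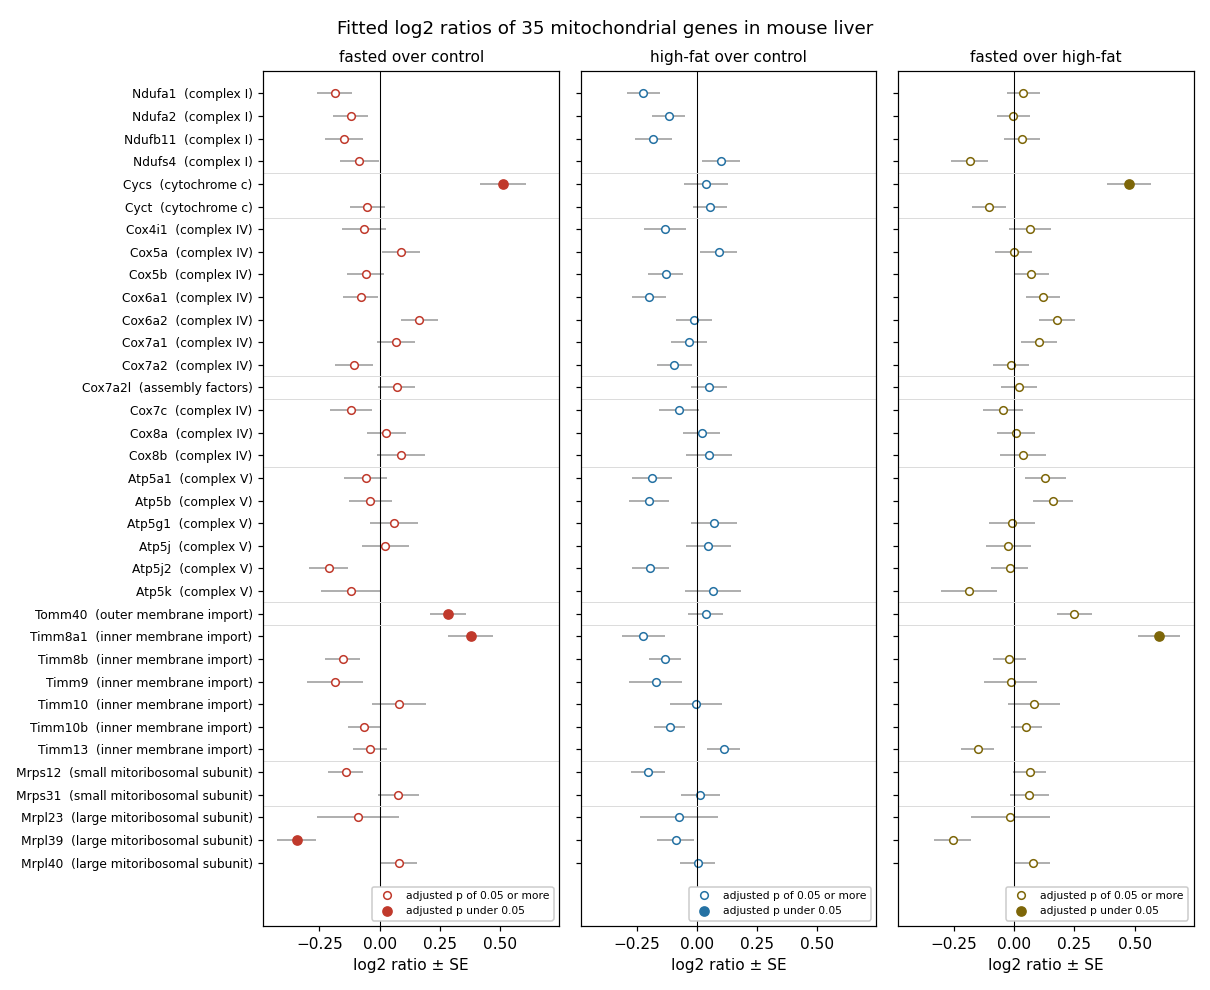
Fitted log2 ratio of each of the 35 genes (points) with its SE (bars) in the 3 comparisons, with the complex or machine named beside each symbol. Filled points have an adjusted p under 0.05: Cycs, Tomm40, Timm8a1 and Mrpl39 in fasted over control, none in high-fat over control, and Cycs and Timm8a1 in fasted over high-fat.

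The promoters of these 4 genes are shown because they are the genes that passed the test and because nuclear regulators such as NRF1 are known to bind promoters of respiratory genes. NRF1 was first described as an activator of the cytochrome c gene in rat. The bases directly before the annotated start of each gene follow, 5′ to 3′ on the gene's own strand, from RefSeq on the mouse assembly GRCm38.p6. Capitals mark the NRF1 core, GCATGCGC or its reverse complement GCGCATGC.
Cycs, chr6:50566570-50566819, minus strand: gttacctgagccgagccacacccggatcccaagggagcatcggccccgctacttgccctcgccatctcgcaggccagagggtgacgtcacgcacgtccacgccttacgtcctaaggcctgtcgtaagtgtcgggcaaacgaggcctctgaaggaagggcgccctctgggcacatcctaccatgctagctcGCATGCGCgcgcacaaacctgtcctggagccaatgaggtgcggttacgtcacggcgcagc
Mrpl39, chr16:84735245-84735494, minus strand: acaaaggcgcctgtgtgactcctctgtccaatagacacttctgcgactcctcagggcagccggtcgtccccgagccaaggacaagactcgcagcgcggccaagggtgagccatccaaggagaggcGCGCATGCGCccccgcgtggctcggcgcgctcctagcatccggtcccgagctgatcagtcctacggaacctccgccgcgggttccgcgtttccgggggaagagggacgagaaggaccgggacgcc
Tomm40, chr7:19715430-19715679, minus strand: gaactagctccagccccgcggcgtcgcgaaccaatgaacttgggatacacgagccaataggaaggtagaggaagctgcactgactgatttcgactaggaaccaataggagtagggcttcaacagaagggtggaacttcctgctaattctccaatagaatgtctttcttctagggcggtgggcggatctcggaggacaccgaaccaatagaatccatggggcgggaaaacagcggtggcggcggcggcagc
Timm8a1, chrX:134541671-134541920, minus strand: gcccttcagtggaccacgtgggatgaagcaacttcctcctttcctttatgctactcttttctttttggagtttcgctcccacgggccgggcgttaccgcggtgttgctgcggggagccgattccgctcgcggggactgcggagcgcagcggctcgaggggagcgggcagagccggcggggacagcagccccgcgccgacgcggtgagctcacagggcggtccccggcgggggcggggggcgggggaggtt
Cycs holds 1 NRF1 core, whose first base is at -60 from the start. Mrpl39 holds the core on both strands as overlapping matches at -125 and -123. The stretches of Tomm40 and Timm8a1 hold none, so the core was found before 1 gene that was higher and before the 1 gene that was lower.

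Promoters reaching 50 bases past the start were given for 31 of the 35 genes. The NRF1 core was found on either strand in 5 of the 31 genes (16.1%), namely Atp5k, Cox6a1, Cycs, Mrpl39 and Timm13. It was found in 3.05% of all 27025 genes with a promoter and 4.41% of the 3806 such genes of the array. The ETS core CCGGAAG, bound by the GABP factor, was found in 8 genes (25.8%), against 9.93% of all genes and 12.5% of the array's genes. The YY1 core AAGATGGC was found in 4 genes (12.9%), against 3.19% and 3.55%. The nuclear receptor core AAGGTCA was found in 2 genes (6.45%), against 5.38% and 4.31%. The motifs were searched on both strands and their letters do not contain each other. These shares describe letters in a window and were not tested.

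Cytochrome c shuttles electrons from complex III to complex IV in the space between the membranes. The log2 ratio of Cycs, fasted over control, was 0.59 in mice 11 and 4, 0.88 in 15 and 2, 0.37 in 13 and 5, and 0.69 in 14 and 3. It was above 0 in all 4 pairs and on all 8 single arrays. The mean over these pairs was 0.63 ± 0.21 (SD, n = 4), and limma gave an adjusted p of 0.00238 for the fitted 0.51. Fasted over high-fat, Cycs was 0.57 in mice 13 and 8, 0.14 in 12 and 6, 0.57 in 11 and 9, 0.15 in 14 and 7, and 0.49 in 15 and 10. All 5 pairs were above 0, and 9 of 10 arrays, but 2 pairs lay near 0.15 and 3 near 0.5. The fitted value was 0.48 ± 0.09, or 1.39-fold, with an adjusted p of 0.00385. High-fat over control, the pairs ran from -0.31 to 0.13 on both sides of 0, and the fitted value was 0.04 ± 0.09. Both Cycs calls were kept in all 15 fits that each left out 1 mouse. Cyct, the form of cytochrome c made in testis germ cells, did not pass the test: its fitted values were -0.05 ± 0.07, 0.05 ± 0.07 and -0.11 ± 0.07 for fasted over control, high-fat over control and fasted over high-fat.

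Protein import was represented by the outer membrane pore Tomm40 and by 6 small TIM chaperones, which escort hydrophobic proteins between the outer and the inner membrane. Timm8a1, which works together with Timm13, was 0.55 in mice 11 and 4, 0.56 in 15 and 2, 0.47 in 13 and 5, and 0.21 in 14 and 3, fasted over control. All 4 pairs and all 8 arrays were above 0. The fitted value was 0.38 ± 0.09 (limma adjusted p = 0.0155). Leaving out control 4, control 5, fasted 11, fasted 13 or fasted 15 raised the adjusted p to 0.0563 to 0.107, with fitted values of 0.32 to 0.38.

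Fasted over high-fat, Timm8a1 was 0.45 in mice 13 and 8, 0.21 in 12 and 6, 0.76 in 11 and 9, 0.55 in 14 and 7, and 0.78 in 15 and 10. All 10 arrays were above 0. The fitted value was 0.60 ± 0.09, or 1.52-fold, with a limma adjusted p of 0.000363, and it was called without any 1 mouse. High-fat over control, Timm8a1 was -0.25 in mice 8 and 4, -0.38 in 10 and 3, -0.28 in 7 and 5, -0.56 in 9 and 2, and 0.09 in 6 and 1. Thus 4 of 5 pairs were below 0, and the fitted -0.22 ± 0.09 did not pass the test (adjusted p = 0.684). The 3 comparisons share mice, so these values are not independent of each other.

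**Figure D2:**
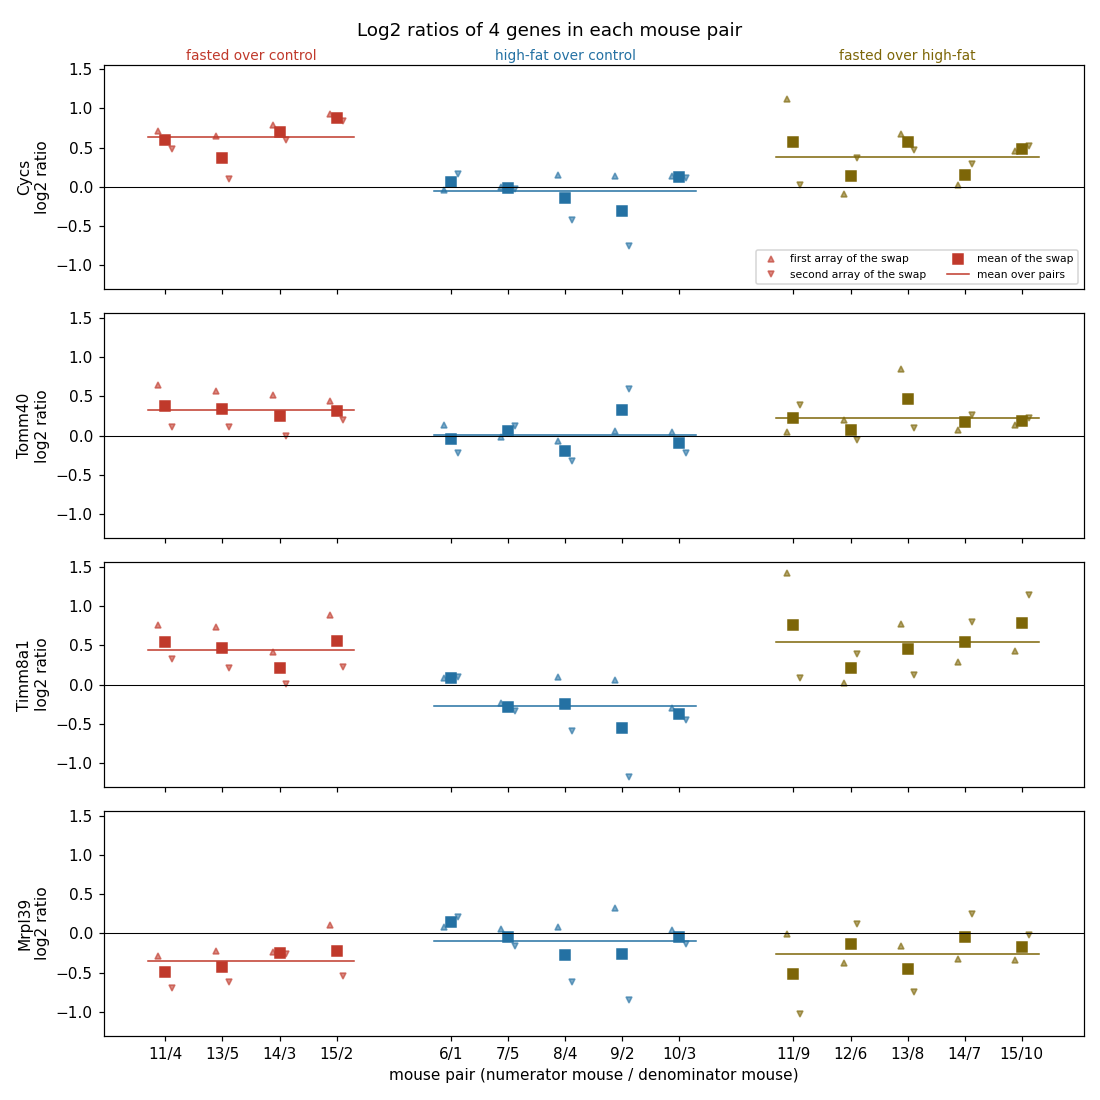
Log2 ratio of Cycs, Tomm40, Timm8a1 and Mrpl39 in each of the 14 mouse pairs, named by mouse numbers. Squares are means of a swap, triangles its 2 arrays, and lines the mean over the pairs of a comparison; in fasted over control every square of Cycs, Tomm40 and Timm8a1 is above 0 and every square of Mrpl39 is below 0, while the arrays of a swap often lie well apart.

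Tomm40 forms the channel through which nearly all imported proteins enter. It was 0.37 in mice 11 and 4, 0.32 in 15 and 2, 0.34 in 13 and 5, and 0.26 in 14 and 3, fasted over control, the narrowest range of the 4 called genes. Of the 8 arrays, 7 were above 0. The fitted value was 0.29 ± 0.08 (limma adjusted p = 0.0244). The 2 spots of Tomm40 gave 0.20 and 0.37, and with the first spot alone the adjusted p was 0.307. Leaving out control 2, control 4, control 5, fasted 11, fasted 13, fasted 14 or high-fat 7 raised it to 0.0539 to 0.124, with fitted values of 0.25 to 0.30. Fasted over high-fat, Tomm40 was above 0 in 5 of 5 pairs, from 0.08 to 0.47, with a fitted 0.25 ± 0.07 and an adjusted p of 0.0529. That adjusted p was 0.0228 without control 2 and 0.0498 without high-fat 9. High-fat over control, the pairs of Tomm40 ran from -0.19 to 0.32, and the fitted value was 0.04 ± 0.07.

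The other 5 import genes did not pass the test in any comparison. Timm13, the partner of Timm8a1, was -0.04 ± 0.07 in fasted over control, 0.11 ± 0.07 in high-fat over control and -0.15 ± 0.07 in fasted over high-fat. Timm8b, the close relative of Timm8a1, was -0.15 ± 0.07 in fasted over control and -0.02 ± 0.07 in fasted over high-fat. Both lay nearer to 0 than Timm8a1, and the differences between these genes were not tested. Timm9 and Timm10, which form the complex that carries metabolite carriers, and Timm10b, which joins it at the inner membrane, ran from -0.19 to 0.08 in fasted over control.

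The mitochondrial ribosome was represented by 3 proteins of the large subunit and 2 of the small subunit. Mrpl39 was -0.49 in mice 11 and 4, -0.22 in 15 and 2, -0.42 in 13 and 5, and -0.25 in 14 and 3, fasted over control. All 4 pairs were below 0, and 7 of 8 arrays. The fitted value was -0.34 ± 0.08 (limma adjusted p = 0.0131). Leaving out control 4, control 5, fasted 11 or fasted 13 raised the adjusted p to 0.0659 to 0.0925, with fitted values of -0.34 to -0.29. Fasted over high-fat, Mrpl39 was below 0 in 5 of 5 pairs, from -0.52 to -0.04, with a fitted -0.26 ± 0.08 and an adjusted p of 0.0707. That adjusted p was 0.0381 without control 2.

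The other 4 ribosomal proteins of the mitochondrion did not pass the test in any comparison. Mrpl40, also of the large subunit, was 0.08 ± 0.08 in fasted over control, and Mrps31, of the small subunit, was 0.08 ± 0.09. Mrpl23, again of the large subunit, could not be placed: its 4 pairs ran from -0.78 to 1.09, the highest being mice 15 and 2. In these mice it was -0.67 on the first array and 2.85 on the second. Its SE of 0.17 was the widest of the 35 genes. Mrps12, the counterpart of a bacterial protein of the decoding site, was -0.14 ± 0.07 in fasted over control (adjusted p = 0.313).

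Among the structural subunits of complexes I, IV and V, 0 of 20 genes passed the limma test in any comparison, against the 4.15% of all named genes called higher and 5.54% called lower in fasted over control. Before adjustment, Ndufa1 of complex I and Atp5j2 of complex V were lower and Cox6a2 of complex IV was higher in fasted over control with a p under 0.05, against 11.7% of all named genes lower and 9.54% higher. In fasted over control, all 4 complex I genes had fitted values below 0, from -0.19 to -0.08, as did 48.5% of all named genes. The lowest was Ndufa1, an accessory subunit encoded on the X chromosome, which was -0.30 in mice 11 and 4, -0.29 in 15 and 2, -0.31 in 13 and 5, and -0.14 in 14 and 3. All 4 pairs were below 0, but only 5 of 8 arrays, and the fitted value of -0.19 ± 0.07 had a limma adjusted p of 0.144. In fits of first and of second arrays alone, each complex I gene had opposite signs, Ndufa1 being 0.09 and -0.46. Of the 6 complex V genes, 4 had fitted values below 0. Atp5j2, a subunit of the membrane part of complex V, was -0.18 in mice 11 and 4, 0.10 in 15 and 2, -0.47 in 13 and 5, and -0.24 in 14 and 3. Its fitted value was -0.21 ± 0.08 (adjusted p = 0.137), and without fasted 15 the adjusted p was 0.0326. Atp5a1 and Atp5b, which alternate in the catalytic head, were -0.06 ± 0.09 and -0.04 ± 0.09.

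Complex IV has subunits with one form in liver and another in heart and skeletal muscle, and both forms were on the array. The muscle form Cox6a2 was 0.27 in mice 11 and 4, 0.39 in 15 and 2, -0.06 in 13 and 5, and 0.20 in 14 and 3, fasted over control. Its fitted value was 0.16 ± 0.08 (adjusted p = 0.253), against -0.08 ± 0.07 for the liver form Cox6a1. The muscle forms Cox7a1 and Cox8b were 0.07 ± 0.08 and 0.09 ± 0.10. Their liver forms Cox7a2 and Cox8a were -0.11 ± 0.08 and 0.03 ± 0.08. With the first arrays alone Cox7a1, Cox8b, Cox7a2 and Cox8a were -0.32, 0.03, 0.68 and -0.41. With the second arrays alone they were 0.46, 0.14, -0.89 and 0.46, in the same order. The value of Cox8b rests on mice 15 and 2, at 0.67, while its other 3 pairs ran from -0.08 to -0.02. In mice 15 and 2 Cox8b was 0.02 on the first array and 1.32 on the second, the array with the widest spread over spots. None of these 6 passed the test, and whether the probes tell the forms apart was not tested. Of 6 skeletal muscle markers and 2 heart markers, 0 passed in either direction, also before adjustment. Cox7a2l, a factor that joins complexes III and IV into a supercomplex and is known to occur in a shortened form in C57BL/6 mice, was 0.07 ± 0.08.

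**Figure D3:**
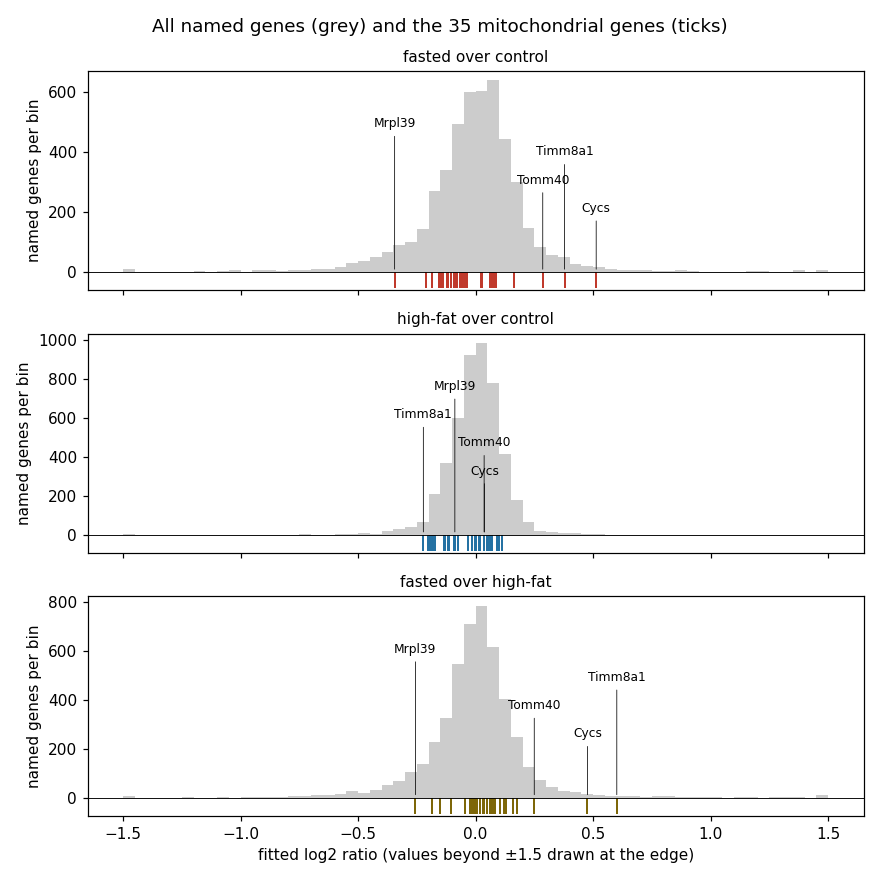
Number of named genes per bin of the fitted log2 ratio (grey bars, 4799 genes) with the 35 mitochondrial genes as ticks under the axis, for the 3 comparisons. Most ticks lie under the central peak, and Cycs and Timm8a1 stand to its right in both comparisons that involve fasted mice.

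Between high-fat and control livers, 0 of 35 genes passed the limma test in either direction, against 0.0625% of all named genes that were higher and 0.271% that were lower. Before adjustment, 0 genes were higher with a p under 0.05, against 2.19% of all named genes, and 8 of 35 (22.9%) were lower, against 4.61%. The 8 were Ndufa1 and Ndufb11 of complex I, Cox6a1 of complex IV, Atp5a1, Atp5b and Atp5j2 of complex V, Timm8a1, and Mrps12. They had fitted values of -0.22 to -0.18, and the smallest adjusted p was that of Ndufa1 (0.347), so none is a call. The median over the 35 genes was -0.07, against 0.00 over all named genes. The tilt toward lower values was not seen in the counts of first arrays alone. With these the median over the 35 genes was 0.002, with 4 genes higher and 4 lower before adjustment. With the second arrays alone it was -0.23, with 1 gene higher and 7 lower. The difference between first and second arrays was not tested.

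Some of these low values are given here by pair of mice. Ndufa1 was -0.37 in mice 8 and 4, -0.20 in 10 and 3, -0.15 in 7 and 5, -0.13 in 9 and 2, and -0.02 in 6 and 1. Mrps12 was -0.22, -0.16, -0.20, -0.42 and -0.12 in the same order of pairs, below 0 on all 10 arrays. Cox6a1 was -0.40, -0.20, -0.21, -0.34 and -0.02 in that order. In each of these genes the pair of mice 6 and 1 lay nearest to 0. Atp5b, the catalytic subunit of complex V, was -0.21, -0.37, -0.14, -0.31 and 0.05, again in that order. Atp5j2 was -0.27, -0.18, -0.23, -0.38 and 0.00.

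The pair of mice 6 and 1 also stood apart in the group medians. The median over the 35 genes was 0.04 in that pair and ran from -0.17 to -0.06 in the other 4. The median over 35 proteins of the cytosolic ribosome was 0.13 in that pair and ran from -0.37 to -0.08 in the other 4, and the median of all named genes ran from -0.06 to 0.03 over the 5 pairs. Of the cytosolic ribosomal proteins, 14 of 35 (40%) were lower before adjustment and 0 after it, with a median of -0.14. Of 6 Kupffer cell markers, 4 were lower before adjustment and 0 after it in this comparison, and the 6 ran from -0.30 to -0.01. Of all named genes, 4.61% were lower before adjustment. The number of the 35 genes that were lower before adjustment ran from 3 to 12 over the 15 fits that each left out 1 mouse. It was 12 without control 1, and 3 without control 4, high-fat 7 or high-fat 10. The part of the cytosolic ribosome genes and of the Kupffer cell markers in these low values was not tested.

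**Figure D4:**
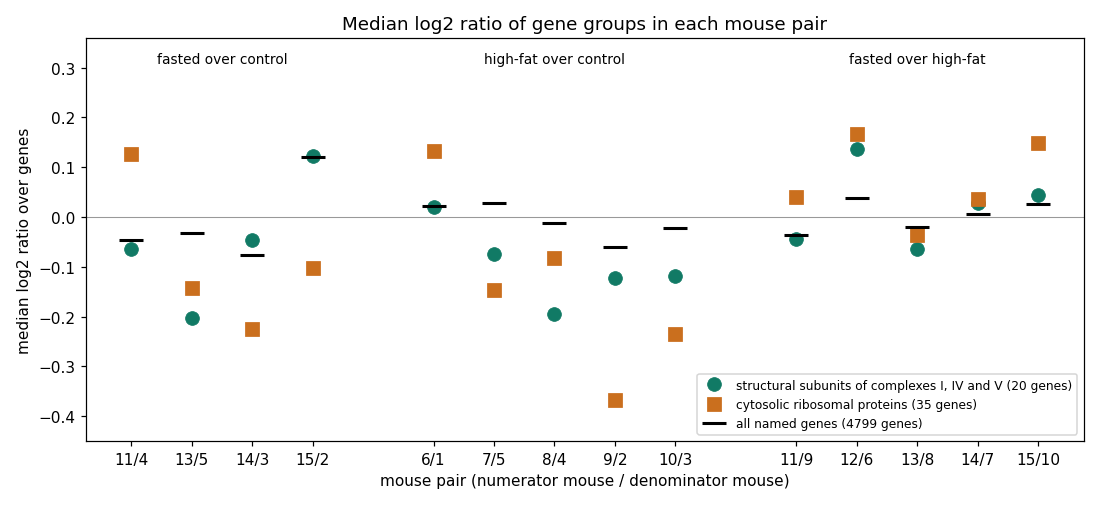
Median log2 ratio in each mouse pair over 20 structural subunits of complexes I, IV and V (circles), 35 cytosolic ribosomal proteins (squares) and all 4799 named genes (bars). In high-fat over control the circles and squares of 4 pairs are below 0, while in mice 6 and 1 both are above 0.

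Between fasted and high-fat livers, Cycs and Timm8a1 were the called genes. This makes 2 of 35 genes (5.71%) higher, against 3.31% of all named genes, and 0 lower, against 3.06%. Before adjustment 4 genes (11.4%) were higher, against 8.75%, and 3 (8.57%) were lower, against 9.77%. The 3 lower genes were Mrpl39, Timm13 and Ndufs4, an accessory subunit of complex I, which was -0.18 ± 0.08 and below 0 in 5 of 5 pairs (adjusted p = 0.224). The fourth higher gene beside Cycs, Timm8a1 and Tomm40 was Cox6a2, at 0.18 ± 0.07 (adjusted p = 0.22). In fasted over control the unadjusted counts were 4 higher (11.4%), against 9.54%, and 4 lower (11.4%), against 11.7%.

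Genes that act with these machines were read from lists of other pathways. Whether their calls hold with the direct pairs alone, with the second arrays alone or without 1 mouse was not checked. Of 9 measured regulators of mitochondrial biogenesis, 1 (11.1%) was higher and 0 lower in fasted over control, against 4.15% and 5.54% of all named genes. That gene was Tfb2m, a factor that opens mitochondrial promoters for transcription, at 0.44 ± 0.10 (adjusted p = 0.0103), and it was also higher than in high-fat livers, by 0.42 ± 0.10 (adjusted p = 0.0134). The coactivator Ppargc1a was 0.25 ± 0.11 (adjusted p = 0.21) and Tfam, which packages mitochondrial DNA, was 0.25 ± 0.11 (adjusted p = 0.236). Over the 9 regulators the median was 0.14, and 0 were called in high-fat over control, also before adjustment.

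Of 9 mitochondrial chaperones, proteases and membrane factors, 2 (22.2%) were higher and 0 lower in fasted over control, against 4.15% and 5.54% of all named genes. They were Phb2, a scaffold protein of the inner membrane, at 0.38 ± 0.08 (adjusted p = 0.00726), and Mtx2, an outer membrane protein with a part in import, at 0.35 ± 0.09 (adjusted p = 0.0212). Against high-fat livers 3 of the 9 (33.3%) were higher, against 3.31% of all named genes: Phb2 at 0.47 ± 0.08, Mtx2 at 0.35 ± 0.09 and Hspa9, the motor chaperone that pulls proteins into the matrix, at 0.29 ± 0.08 (adjusted p = 0.048). Of 7 electron donors and membrane carriers, 1 (14.3%) was higher in fasted over control, against 4.15% of all named genes. It was the outer membrane channel Vdac2, at 0.41 ± 0.07 (limma adjusted p = 0.0015). Against high-fat livers Vdac2 was also higher, by 0.43 ± 0.07. In high-fat over control 0 genes of both lists were called. Before adjustment 1 electron donor, Gpd2, was higher and 2 chaperones, Hspe1 and Hspa9, were lower, against 2.19% and 4.61% of all named genes.

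Of 4 genes of the tricarboxylic acid cycle, 2 factors of mitochondrial DNA maintenance and 2 assembly factors outside the rule, 0 passed the test in any comparison. Before adjustment 1 gene of the cycle and 1 of DNA maintenance were higher in fasted over control, against 9.54% of all named genes. In fasted over high-fat 2 of the 4 cycle genes were higher before adjustment, against 8.75%, and 0 of the DNA maintenance and assembly factors. Of 35 cytosolic ribosomal proteins, 1 (2.86%) was higher and 2 (5.71%) were lower in fasted over control. These shares lay near the 4.15% and 5.54% of all named genes. The higher gene was Rpl22 at 0.27 ± 0.07 (limma adjusted p = 0.0231). The lower genes were Rpl35a at -0.40 ± 0.09 (adjusted p = 0.00612) and Rpl41 at -0.32 ± 0.09 (adjusted p = 0.0269).

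Markers of other cell types were read as well, in ratios that carry no level. Of all named genes, 5.54% were lower and 4.15% higher in fasted over control, and before adjustment 11.7% and 9.54%. In fasted over control, 4 of 6 Kupffer cell markers were lower, with the 6 running from -0.68 (Cd5l) to -0.10, and 2 of 5 endothelial markers were lower, with the 5 running from -0.33 (Tek) to -0.05. Of 3 erythroid markers 2 were lower, of 6 neutrophil markers 1 was lower (Camp, -2.14), and of 2 adipocyte markers 1 was lower (Car3, -2.75, a gene that hepatocytes also make). Of 3 hepatocyte markers 2 were higher (Tdo2, 0.61, and Apoa1, 0.37), and of 3 stellate cell markers 1 was higher (Dcn, 0.29). Of 2 brown fat markers and 5 testis markers, among them Cyct of the 35 genes, 0 were called. Before adjustment both brown fat markers and 1 testis marker were lower. In fasted over high-fat, where Cycs and Timm8a1 were called, 1 of 6 neutrophil markers was lower (Camp, -2.32), while 3 of the 6 lay above 0. Of 2 adipocyte markers 1 was lower (Car3, -2.01), and the other, Lep, was 0.06. Of 3 hepatocyte markers 1 was higher (Tdo2, 0.69), while Apoa1 was -0.01. Of all named genes, 3.06% were lower and 3.31% higher there. The 6 Kupffer cell markers ran from -0.41 to 0.07 in that comparison, with 0 called. Before adjustment 3 of them were lower, against 9.77% of all named genes. The part of these markers in the values of Cycs, Timm8a1, Tomm40 and Mrpl39 was not tested.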

How the data were processed

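Liver RNA was compared on 28 two-colour arrays, run as 14 dye swaps by the design text; the second arrays' channel labels, read literally, show no exchange. The authors' deposited table holds 1 processed ratio of the dyes per spot and array, taken here as a log2 ratio since no base is stated. Per the submitters' processing notes limma was among the tools; its version and role, the background correction and the normalization are not given in these sources. Both arrays of a swap were brought to one direction and averaged as 1 replicate. The 2 spots of a gene were averaged, and 6658 unnamed spots were tested singly.

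One limma fit (3.58.1, R 4.3.3) held all 14 pairs, with generalised least squares for pairs that share a mouse. The share of variance between mice was set at 17.96%, the trimmed mean of the estimates for all features, whose median share was 0.05. The fit had 12 residual degrees of freedom. Genes were named where called in any comparison, or where first by moderated t within a complex or machine against controls, with the called genes of the other lists; further genes were given after their values were seen. The kinase Rps6kb2 was left out of the ribosomal list. Genes and lists were chosen with earlier results of these data known. Alternatives changed centring, scale, the mouse share, pairs, arrays, spots and mice. Intensities were not used here, so depth is given only by the number of arrays.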

Additional observations from a re-analysis of the deposited data

Results flagged for a closer look

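Over 105 sets of pair values, for 35 genes in 3 comparisons, 4 values stood far from the others of their set by Dixon's test. Ndufa1 was -0.1404 in mice 14 and 3, fasted over control, while the other 3 pairs ran from -0.31 to -0.29. Cox8b was 0.6687 in mice 15 and 2, fasted over control, while the other 3 pairs ran from -0.08 to -0.02. Atp5j was -0.3005 in mice 6 and 1, high-fat over control, while the other 4 pairs ran from 0.03 to 0.08. Timm10b was 0.2091 in mice 13 and 8, fasted over high-fat, while the other 4 pairs ran from -0.03 to 0.01. Chance alone flags about 1 in 20 such sets.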

How the results depend on the processing

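The groups share no replicate numbers to use as a block; every fit is of directly hybridised mouse pairs, with shared mice in the covariance. Of the 6 calls, 0 changed direction under any alternative. The Cycs calls and the Timm8a1 call against high-fat livers were kept in all 15 omissions of a mouse and in 8 of 10 other settings, and were lost with the direct pairs alone and with the second array of each swap alone.

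In fasted over control, 4 genes were called. Without the pair of mice 15 and 2, an alternative chosen after seeing the data, the count was 5, with Atp5j2 added as lower. It was 0 when only directly hybridised pairs were used, 12 with the first arrays alone and 2 with the second arrays alone. It ran from 1 to 4 without 1 mouse, and was 1, which was Cycs, without control 4, control 5, fasted 11 or fasted 13. The 2 genes called with the second arrays, Cox7a2 and Timm9, were lower there, at -0.89 and -0.81. With the first arrays both were called higher, at 0.68 and 0.44. The median of the 35 genes, -0.06, was 0.072 with the first arrays and -0.22 with the second. In fits of first and of second arrays alone 24 of 35 genes had opposite signs; the cause was not tested.

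In high-fat over control the count of 0 became 2 with the first arrays (Cox7a2l and Mrpl23, both lower). It was 0 in all 15 omissions. The median of -0.07 was 0.002 with the first arrays and -0.23 with the second arrays. Before adjustment, 4 genes were higher and 4 lower there with the first arrays, and 1 higher and 7 lower with the second. In fasted over high-fat the count of 2 became 4 with arrays scaled to the same spread, with the share between mice at 0, with the first arrays, and without the pair of mice 15 and 2, an alternative chosen after seeing the data. It became 0 with the direct pairs and 0 with the second arrays, and ran from 2 to 4 without 1 mouse, the 4 without control 2. Added genes there were Tomm40, higher, and Mrpl39, lower. The direct pairs leave fewer samples; other causes were not tested. Where both spots of a gene differ, as in Cox5a (by 0.41 in fasted over control), the mean hides it. Signal over background is unknown.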
